A study of Arabidopsis thaliana with 18 samples.

Results

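The genes described here responded to ozone in rosettes of the Arabidopsis thaliana accession Cvi-0 and stayed under a set limit of rise in the accession Col-0 and in the near-isogenic line Col-S. They are 31 of 32678 genes listed, of which 27247 had at least 1 count. Counts were divided by the library total and scaled to a total of 1000000 (CPM), and the mean of log2(CPM + 1) over the 3 libraries of a group was taken. A gene was included where ozone minus control was at least 2 in Cvi-0 and at most 0.5 in both Col-0 and Col-S. The genes were thus selected on their ozone contrasts in all 3 genotypes, and these values are given as a description with no test. The rule names no cell type or pathway, and at most 0.5 is not the same as no response. Since 1 is added to the CPM, a gene with few counts can rise by a large ratio in Col-0 or Col-S and still meet the rule, and some of the 31 did.

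Plants were 3 weeks old and grown at a 12-h day, and each library came from 10 to 15 pooled whole rosettes. The 6 groups were Cvi-0 after 2 h at 350 ppb ozone, Cvi-0 controls, Col-0 after ozone, Col-0 controls, Col-S after ozone and Col-S controls, with 3 biological replicates each. Cvi-0 comes from the Cape Verde islands, most laboratory work uses Col-0, and in Col-S the sensitivity to ozone was introgressed from Cvi-0 into a Col-0 background. The series profiled how ozone responses differ between the parents and the introgression line.

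Ozone enters leaves through stomata and breaks down to reactive oxygen species in the cell wall space, and the plant answers with much of the programme it uses against pathogens. That programme includes cell surface and intracellular immune receptors, indole glucosinolates (sulphur-containing defence compounds made from tryptophan) and glycosyltransferases that attach sugars to small molecules. Cvi-0 and Col-0 also differ in sequence and in gene copies, and reads of all genotypes were counted on TAIR10, a genome of Col-0. A count in a Cvi-0 library is thus a count of Cvi-0 reads that aligned to the Col-0 copy of a gene.

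Total counts ranged from 14905841 to 26171613 per library. The 6 leaf markers, among them RBCS1A of the small Rubisco subunit and the Rubisco activase RCA, summed to 16339 to 19375 CPM in Cvi-0 ozone libraries, against 48988 to 51787 CPM in Cvi-0 controls. They summed to 30347 to 40289 CPM in Col-0 ozone libraries against 55006 to 56704 CPM in Col-0 controls, and to 20649 to 26442 CPM in Col-S ozone libraries against 51962 to 55136 CPM in Col-S controls. The 4 guard cell markers, FAMA, KAT1, SLAC1 and MYB60, summed to 43.6 to 51.5 CPM in Cvi-0 ozone libraries against 76.4 to 82.4 CPM in Cvi-0 controls. The part of these shifts in the values below was not tested, and in whole rosettes fewer cells of a type and less RNA per cell cannot be told apart. No library's summed level exceeded 2.29 CPM for 5 root markers, 2.94 CPM for 5 flower markers, 0.306 CPM for 3 pollen markers or 1.26 CPM for 4 seed markers. The root hair gene EXPA7 was at 0 in all 18 libraries, and the petal gene AP3 was at 0 in all ozone libraries.

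The largest Cvi-0 difference was that of AT1G52950, whose upstream sequence is nearly the same as that of AT1G64410, also one of the 31, and this pair is shown first. AT1G52950 (chr1:19725483-19728007, plus strand) encodes a protein with an OB fold, a nucleic acid-binding fold, and AT1G64410 (chr1:23926393-23932203, minus strand) is annotated as a pseudogene. Over the window of 250 bases before to 50 bases after the annotated start, 293 of 300 positions were the same in the TAIR10.1 reference, which is Col-0 sequence. The promoters of CYP79B3, an entry enzyme of indole glucosinolate synthesis, and of BRU6 are shown as examples that hold ACGTG more than once. BRU6 is an enzyme of the GH3 family that joins auxin to amino acids. ACGTG was the motif found most often among the 31 relative to all genes. Other promoters of the 31, among them that of UGT85A3, also hold it more than once, and a G-box counts as a match on each strand. Each line gives the 250 bases before the annotated start, 5′ to 3′ on the strand of the gene, with capitals for any match, on either strand, to the W-box core TTGAC, the G-box CACGTG, the GCC box GCCGCC, the abscisic acid element core ACGTG or the heat shock element GAANNTTC.
AT1G52950 (chr1:19725233-19725482, plus strand): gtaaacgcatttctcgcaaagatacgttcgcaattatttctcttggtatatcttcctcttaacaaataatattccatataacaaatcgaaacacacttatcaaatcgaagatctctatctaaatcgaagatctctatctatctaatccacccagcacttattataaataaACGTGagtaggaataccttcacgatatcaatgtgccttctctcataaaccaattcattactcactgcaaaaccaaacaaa
AT1G64410 (chr1:23932204-23932453, minus strand): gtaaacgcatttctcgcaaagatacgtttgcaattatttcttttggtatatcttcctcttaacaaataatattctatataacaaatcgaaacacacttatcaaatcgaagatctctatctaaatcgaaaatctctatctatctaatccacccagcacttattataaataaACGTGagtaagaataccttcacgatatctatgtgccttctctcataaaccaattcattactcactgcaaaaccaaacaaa
CYP79B3 (chr2:9488304-9488553, plus strand): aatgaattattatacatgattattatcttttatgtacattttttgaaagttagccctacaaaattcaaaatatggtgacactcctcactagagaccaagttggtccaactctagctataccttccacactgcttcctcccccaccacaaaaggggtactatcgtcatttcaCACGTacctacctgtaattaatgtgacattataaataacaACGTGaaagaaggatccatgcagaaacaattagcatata
BRU6 (chr4:17579407-17579656, plus strand): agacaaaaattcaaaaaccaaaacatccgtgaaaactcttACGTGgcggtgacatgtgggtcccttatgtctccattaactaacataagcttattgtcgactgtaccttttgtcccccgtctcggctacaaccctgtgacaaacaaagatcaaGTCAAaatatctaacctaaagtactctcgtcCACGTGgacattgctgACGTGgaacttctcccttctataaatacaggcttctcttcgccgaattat
The upstream lines of AT1G52950 and AT1G64410 differ at 6 of 250 positions, and the capitals in both mark the same ACGTG match. No other gene with a count had a promoter alike to one of the 31 at 210 or more of 300 positions.

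Across the 31 promoters, the share with ACGTG lay above that of all genes, and the share with the W-box core lay below that of all genes that reached 2 in Cvi-0. ACGTG was present in 15 of 31 promoters (48.4%), against 27% of 27246 promoters of genes with a count and 35.9% of the 1945 genes with a Cvi-0 difference of at least 2. The G-box CACGTG, which contains ACGTG, was present in 4 of 31 (12.9%), against 8% of all and 10.9% of the Cvi-0 responsive promoters. TTGAC, the core bound by WRKY factors, was present in 13 of 31 (41.9%), against 49.1% of all and 67.4% of the Cvi-0 responsive promoters. GAANNTTC was in 5 of 31 (16.1%), against 12.1% of all and 21.5% of the Cvi-0 responsive promoters, and GCCGCC in 1 of 31 (3.23%), against 3.69% of all and 3.86% of the Cvi-0 responsive promoters. These are matches of letters in the Col-0 reference, and the differences in share were not tested.

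Seen over all libraries, most of the 31 genes were highest in Cvi-0 ozone libraries, while the other groups ranged from silent to high. The difference in Cvi-0 ranged over 2.08 to 4.96 on the log2(CPM + 1) scale with a median of 2.52, that in Col-0 over -1.23 to 0.34 with a median of 0, and that in Col-S over -0.91 to 0.47 with a median of 0.07. The medians over all genes with a count were -0.00046 in Cvi-0, -0.0040 in Col-0 and -0.0056 in Col-S. In Cvi-0 the lowest ozone library lay above the highest control for 31 of 31 genes, and for 27 the lowest Cvi-0 ozone library also lay above all 15 other libraries. The exceptions were AT4G19510, AT5G59670, AT1G54050 and CYP79B3, whose levels in Col-0 and Col-S controls were already above those of Cvi-0 controls. The rule used these same libraries, so both counts of non-overlap are a description, and the share over all genes was not computed.

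**Figure D1:**
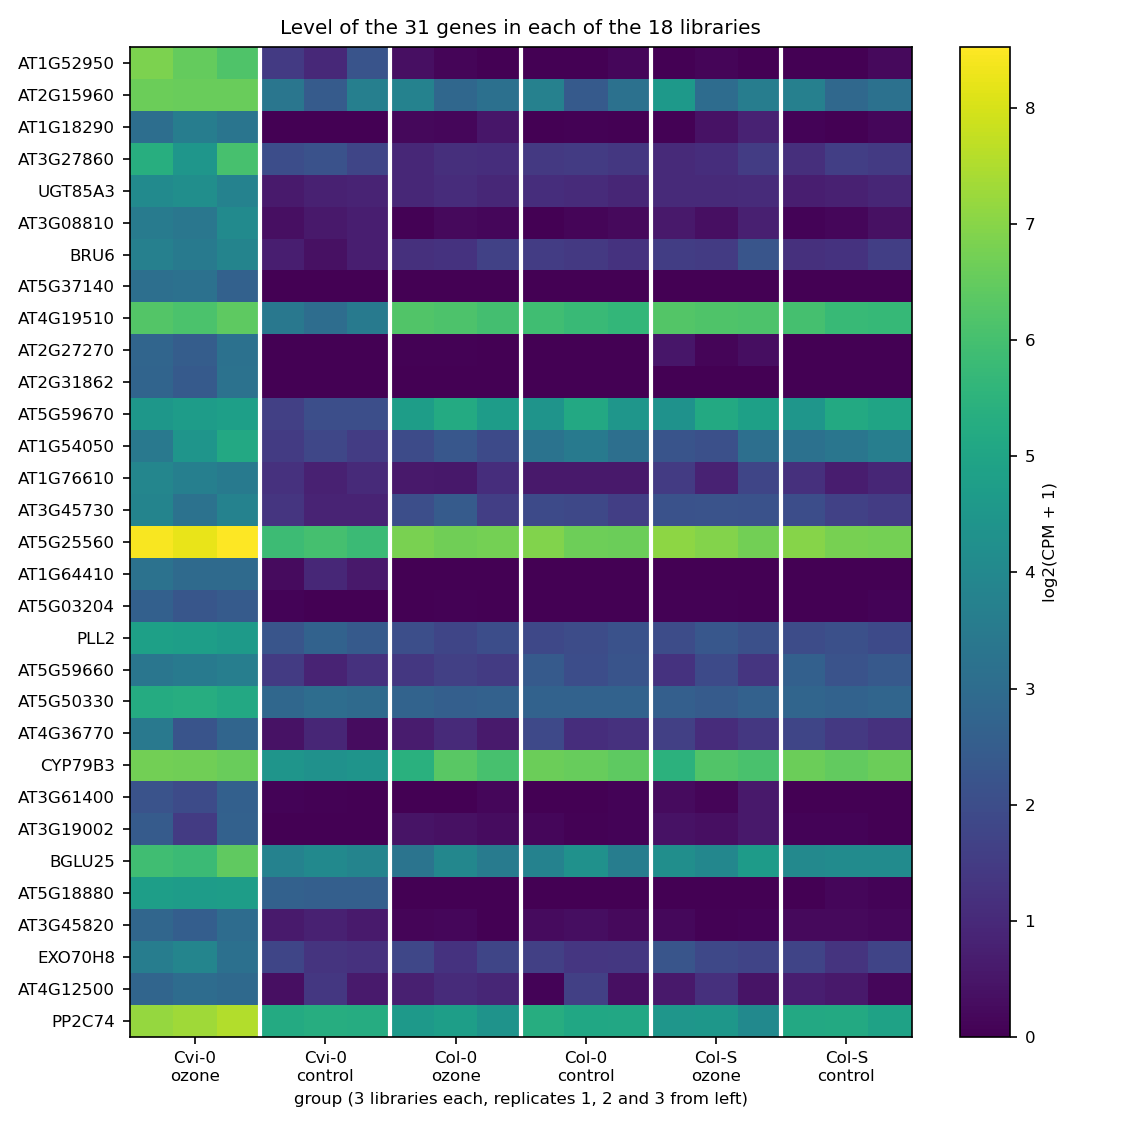
Level of each of the 31 genes, in log2(CPM + 1) by colour, in each of the 18 libraries, with genes ordered by their Cvi-0 difference and groups of 3 libraries side by side. The Cvi-0 ozone columns are the brightest for 27 genes, and AT4G19510, AT5G59670 and CYP79B3 have their darkest cells in Cvi-0 controls.

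The thresholds cut through a continuum. The genes just inside the Cvi-0 threshold were PP2C74 at 2.08, AT4G12500 at 2.12 and EXO70H8 at 2.12, and those just outside were AT4G18422 at 1.99, AT4G07868 at 1.98 and AT5G13880 at 1.94. For Col-0, AT4G19510 at 0.34, AT3G19002 at 0.27 and AT1G18290 at 0.26 lay inside, and CYP83B1 at 0.55, AT4G10990 at 0.59 and AT5G24240 at 0.89 outside. For Col-S, AT2G15960 at 0.47, AT1G76610 at 0.43 and AT3G45730 at 0.43 lay inside, and AT3G46070 at 0.51, AT5G44570 at 0.53 and AT2G29430 at 0.58 outside. The 31 genes were 1.59% of the 1945 genes that reached 2 in Cvi-0, while 1780 of those exceeded 0.5 in Col-0 and 134 exceeded 0.5 in Col-S but not in Col-0.

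**Figure D2:**
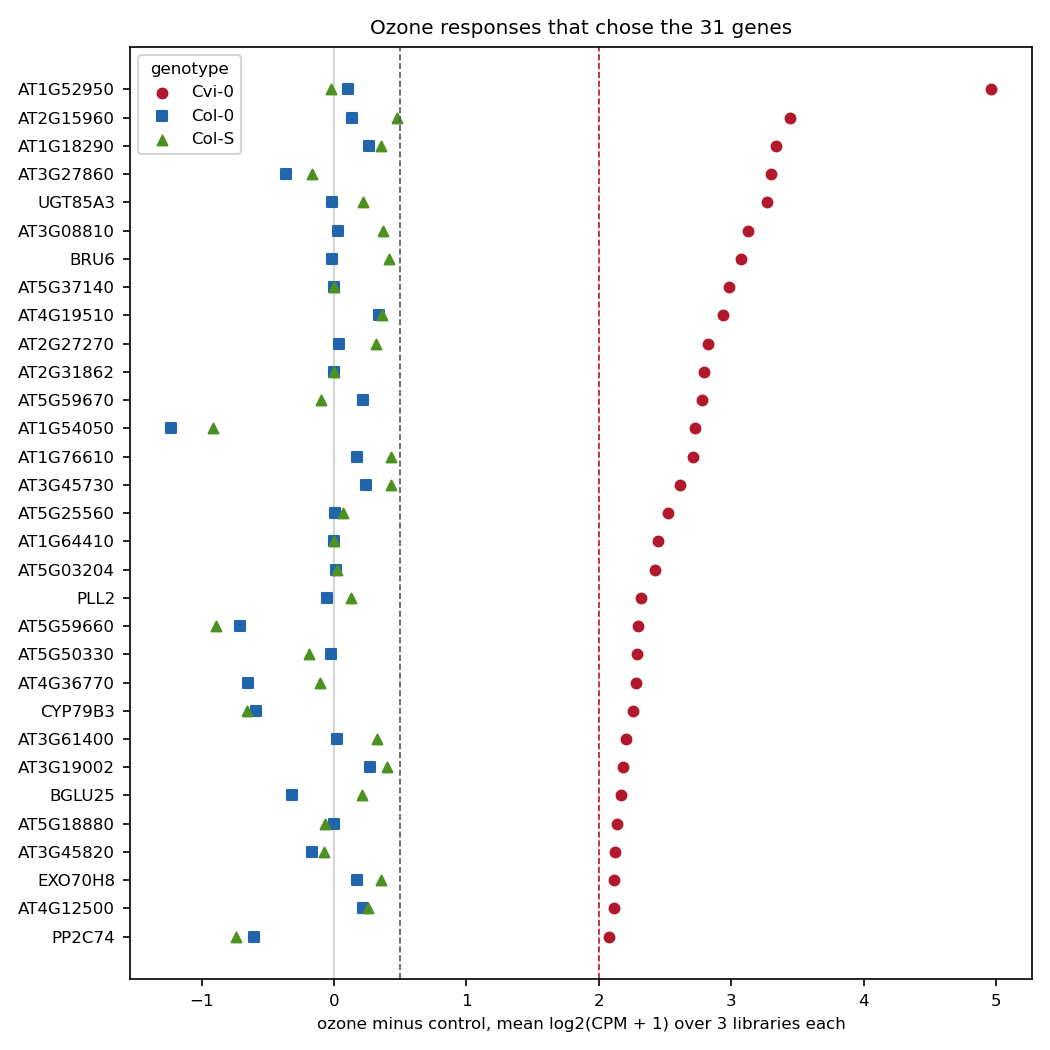
Ozone minus control, as the difference of mean log2(CPM + 1) over 3 libraries each, for every one of the 31 genes in Cvi-0 (circles), Col-0 (squares) and Col-S (triangles), with dashed lines at the thresholds of 2 and 0.5. AT1G52950 lies farthest right in Cvi-0 at 4.96, and AT1G54050 lies farthest left in Col-0 at -1.23.

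All 31 genes passed the filter on low counts and entered an edgeR quasi-likelihood fit of 20622 genes, whose calls at an adjusted p under 0.05 are set beside the share of all tested genes called. In Cvi-0, 31 were called higher after ozone (34.5% of all genes) and 0 lower (36.1%), counts that follow from the rule. In Col-0, 3 were called higher (29.8%), namely AT1G18290, AT4G19510 and AT3G19002, and 3 lower (27.5%), namely AT1G54050, AT5G59660 and PP2C74. In Col-S, 10 were called higher (34.3%), namely AT1G18290, UGT85A3, AT3G08810, BRU6, AT4G19510, AT2G27270, AT1G76610, AT3G45730, AT3G61400 and AT3G19002, and 3 lower (34%). Among those 10, AT2G27270 had 15 counts over the Col-S ozone libraries against 0 over the controls, AT3G61400 14 against 0, AT3G19002 21 against 2 and AT1G18290 20 against 3. In Col-0, AT1G18290 had 14 counts over the ozone libraries against 1 over the controls, and AT3G19002 had 20 against 4. AT3G08810 and AT1G76610 rose in Col-S by 1.77 ± 0.6 and 1.01 ± 0.4 log2 units (SE), and UGT85A3, BRU6, AT4G19510 and AT3G45730 by 0.54 to 0.83. The Col-0 count of 3 higher was 1 without Col-0 control replicate 3, and that of 3 lower was 5 without Col-0 ozone replicate 2. The Col-S count of 10 was 4 without Col-S control replicate 2 and 5 without Col-S ozone replicate 3. The response of Cvi-0 minus that of Col-0 was called higher for 22 genes (11.1%) and lower for 0 (10.3%), and minus that of Col-S higher for 21 (2.2%) and lower for 0 (2.66%), directions that the rule fixes as well. The genes not called there had a group at or near 0 counts, apart from the lipid-transfer protein AT4G12500 against Col-S.

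Choosing the genes on a pair of replicate numbers and reading the third gave values that the choice had not used. Without replicate 1, 2 or 3 the rule took 31, 31 and 39 genes, of which 27, 26 and 25 were among the 31. In the replicate left out, their median Cvi-0 difference was 2.54, 2.31 and 2.72. Every one of these genes was above 0 in Cvi-0 and above both Col-0 and Col-S in the replicate left out, and 20, 19 and 20 of them met all 3 thresholds there. In replicate 3, 26 of the 39 genes stayed at most 0.5 in Col-S, and the highest Col-S difference was 3.08. These sets share only a part of their genes with the 31, which all 3 replicates chose, so the values are no test of the 31.

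Immune receptors and signalling proteins formed a group of 6, and in 3 of them the lowest level lay in Cvi-0 controls. AT4G19510 (chr4:10633685-10639001, plus strand) encodes a TIR-NBS-LRR protein, the class of intracellular receptors that recognise pathogen effectors. It had 74.4, 68.5 and 83.8 CPM in Cvi-0 ozone libraries, against 9.55, 7.26 and 10.3 CPM in Cvi-0 controls. It had 72.7, 69.7 and 62.6 CPM in Col-0 ozone libraries against 59.2, 53.4 and 49.1 CPM in Col-0 controls, and 74.5, 72 and 69.4 CPM in Col-S ozone libraries against 63.8, 52.6 and 51.6 CPM in Col-S controls. The 3 Cvi-0 controls were the only low libraries, and the Cvi-0 ozone values overlapped those of the other lines after ozone. The log2 fold change between ozone and control in Cvi-0 was 3.2 ± 0.15 (SE), that between Cvi-0 and Col-0 controls -2.59 ± 0.14, and that between Cvi-0 and Col-0 after ozone 0.14 ± 0.13.

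The same arrangement held for a leucine-rich repeat kinase. AT5G59670 (chr5:24041494-24045652, plus strand) belongs to the receptor-like kinases, which sense signals at the cell surface. It had 21.6, 25.5 and 27.1 CPM in Cvi-0 ozone libraries against 2.08, 3.1 and 3.12 CPM in Cvi-0 controls, and 26, 36.2 and 25 CPM in Col-0 ozone libraries against 20.3, 34.4 and 21.1 CPM in Col-0 controls. Its Col-S values, 19.3, 34.9 and 27.9 CPM after ozone and 21.5, 35.1 and 30.7 CPM in controls, lay in the same range, so that Cvi-0 controls were again the low group. AT5G59660, a second kinase of the same cluster, had 9.11, 10.3 and 11.4 CPM in Cvi-0 ozone libraries against 1.82, 0.802 and 1.34 CPM in Cvi-0 controls. In the other lines its level was lower after ozone, with 1.61, 2.06 and 1.79 CPM in Col-0 ozone libraries against 4.33, 3 and 3.6 CPM in Col-0 controls and a Col-S difference of -0.89. The response of AT5G59660 thus had opposite signs in Cvi-0 and in both other lines. AT5G59660 overlaps the annotated gene AT5G59662, and whether counting used strand is not stated in the sources.

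The neighbours of these receptors, which the rule did not use, did not share one pattern. The genes of both clusters were looked at after the values of AT4G19510 and AT5G59670 were known. In the kinase cluster AT5G59650, 586 bases upstream of AT5G59660, averaged 1.98 ± 0.688 CPM in Cvi-0 ozone libraries and 0.155 ± 0.146 CPM in Cvi-0 controls (SD, n = 3 each), and 3.31 ± 0.407 CPM in Col-0 ozone libraries against 5.14 ± 1.14 CPM in Col-0 controls. Its response was higher in Cvi-0 than in Col-0 by 4.28 ± 0.53 log2 units (edgeR adjusted p = 4.9e-05) and than in Col-S by 4.42 ± 0.53 (adjusted p = 8.4e-05). AT5G59680, 1139 bases downstream of AT5G59670, went the other way, since its response was lower in Cvi-0 than in Col-0 by a log2 difference of -1.71 ± 0.37 (adjusted p = 0.00343). It averaged 5.13 ± 0.542 CPM in Cvi-0 ozone libraries against 3.66 ± 1.4 CPM in Cvi-0 controls, and 29.9 ± 4.87 CPM in Col-0 ozone libraries against 6.35 ± 0.434 CPM in Col-0 controls.

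In the TIR-NBS-LRR cluster AT4G19510 was the only 1 of 4 genes that averaged above 10 CPM in a Cvi-0 group. AT4G19520, 267 bases downstream on the opposite strand, averaged 0.3 ± 0.094 CPM in Cvi-0 ozone libraries and 0.219 ± 0.149 CPM in Cvi-0 controls. The same gene averaged 224 ± 32.5 CPM in Col-0 ozone libraries against 26.9 ± 6.01 CPM in Col-0 controls, and 509 ± 127 CPM in Col-S ozone libraries against 27.2 ± 2.62 CPM in Col-S controls. Its response was lower in Cvi-0 than in Col-0 (log2 difference -2.71 ± 0.71, edgeR adjusted p = 0.0124). AT4G19500 was also low in Cvi-0, at 1.15 ± 0.244 CPM after ozone and 1.75 ± 0.0278 CPM in controls, against 49.8 ± 6.86 CPM in Col-0 ozone libraries and 65.8 ± 9.63 CPM in Col-0 controls. AT4G19530 averaged 5.35 ± 1.57 CPM in Cvi-0 ozone libraries against 1.45 ± 0.613 CPM in Cvi-0 controls, and it fell to 25 ± 13.1 CPM in Col-0 ozone libraries, against 128 ± 14.1 CPM in Col-0 controls. The responses of AT4G19530 differed between Cvi-0 and Col-0 by 4.28 ± 0.48 log2 units (adjusted p = 1.9e-05). How far Cvi-0 reads of these receptors align to the Col-0 copies was not tested.

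**Figure D3:**
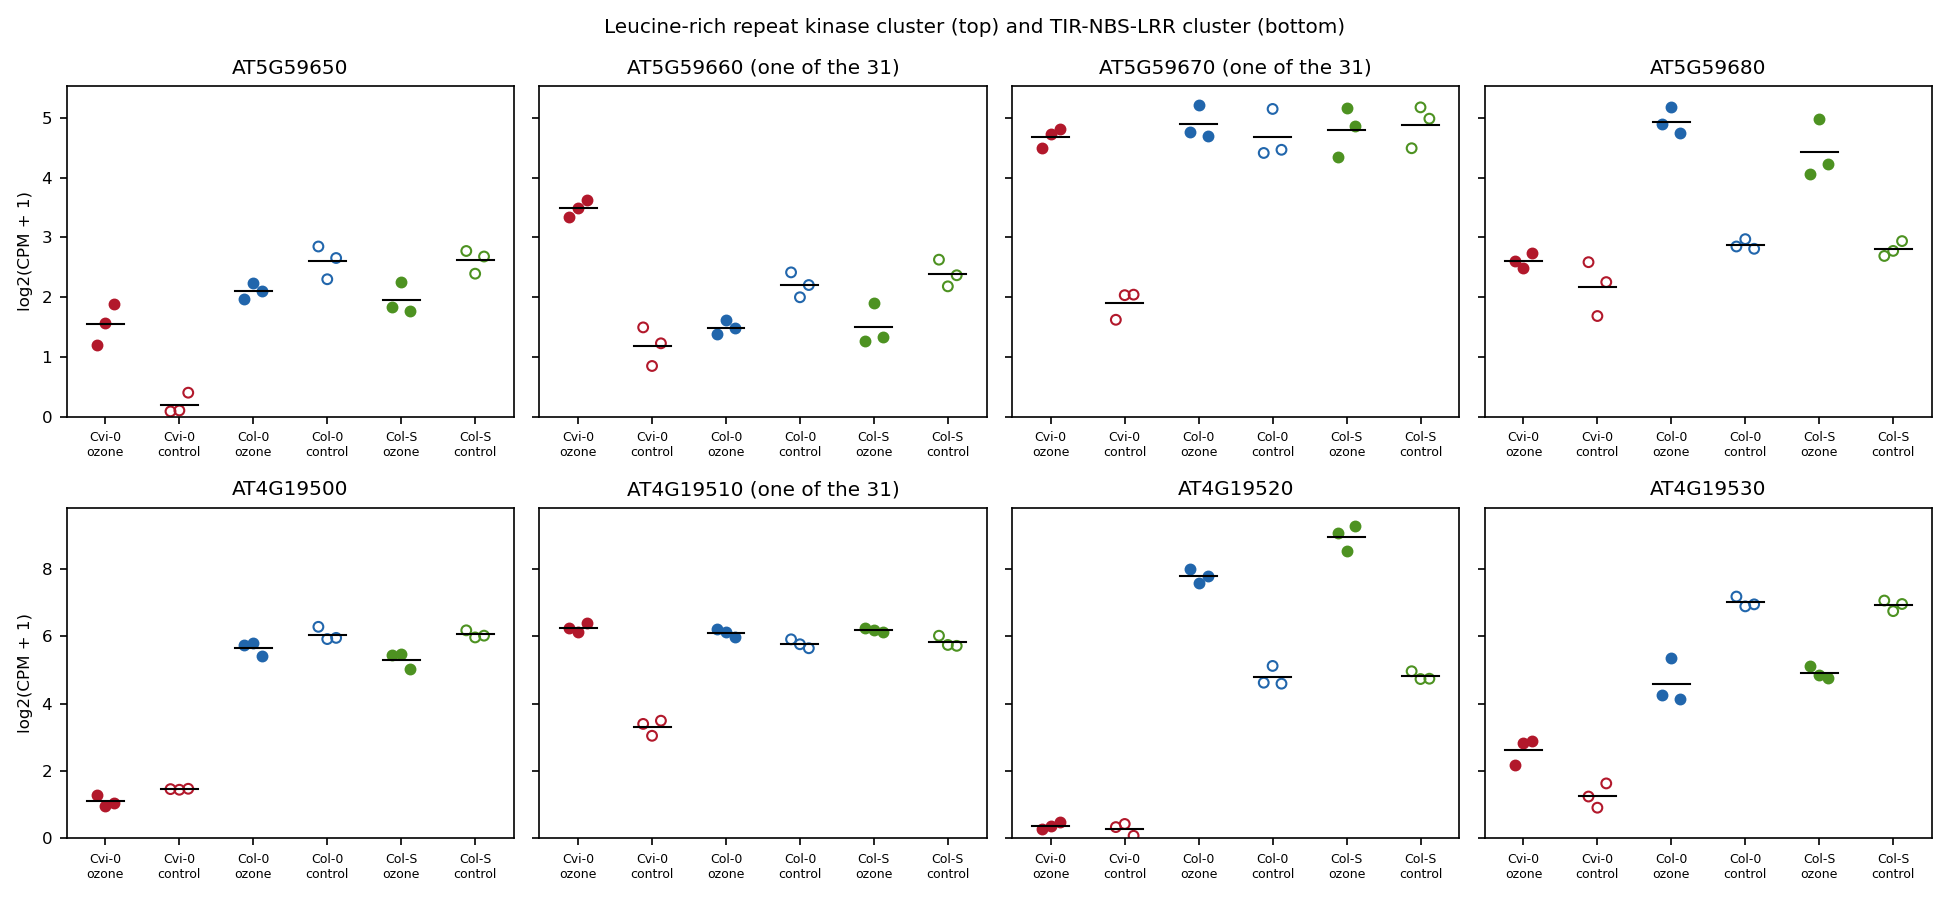
Level in log2(CPM + 1) of 4 neighbouring leucine-rich repeat kinase genes (top) and 4 neighbouring TIR-NBS-LRR genes (bottom) in each library, filled for ozone and open for control, with a bar at the group mean. AT5G59670 and AT4G19510 are low in Cvi-0 controls alone, while AT4G19500 and AT4G19520 are lower in both Cvi-0 groups than in any other group.

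The other signalling genes were a kinase and a pair of protein phosphatases of type 2C, a class that removes phosphate from serine and threonine and includes brakes on abscisic acid and receptor signalling. AT5G50330, a protein kinase, had 36.8, 38.8 and 34.7 CPM in Cvi-0 ozone libraries against 6.17, 7.3 and 6.78 CPM in Cvi-0 controls, and stayed within 4.49 to 5.89 CPM in the 12 Col-0 and Col-S libraries. PP2C74 was higher in Cvi-0 and lower in both other lines after ozone. It had 144, 156 and 187 CPM in Cvi-0 ozone libraries against 36.2, 38.4 and 37.9 CPM in Cvi-0 controls, 22.8, 26.2 and 19.8 CPM in Col-0 ozone libraries against 39.2, 32.9 and 33.5 CPM in Col-0 controls, and 21.2, 21.7 and 15.5 CPM in Col-S ozone libraries against 34.7, 35 and 29.2 CPM in Col-S controls. Ozone and control libraries of PP2C74 did not overlap in any of the 3 genotypes. PLL2, a relative of the POLTERGEIST phosphatases of stem cell signalling, had 27.5, 26.6 and 24.1 CPM in Cvi-0 ozone libraries against 3.7, 5.35 and 4.3 CPM in Cvi-0 controls, with differences of -0.05 in Col-0 and 0.13 in Col-S. Its relatives PLL4 and PLL5 responded in every genotype: the difference of PLL5 was 2 in Cvi-0, 1.93 in Col-0 and 2 in Col-S, and its response did not pass the test of a difference between Cvi-0 and Col-0 (0.07 ± 0.16 log2 units, edgeR adjusted p = 0.803).

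The genes of a list on salicylic acid and immunity, which holds none of the 31, were mostly called higher after ozone in all 3 genotypes. Of its 20 tested genes, 19 were called higher after ozone in Cvi-0 (34.5% of all genes), 18 in Col-0 (29.8%) and 19 in Col-S (34.3%). The difference between the Cvi-0 and Col-0 responses was called higher for 13 of the 20, against 11.1% of all tested genes, and that between Cvi-0 and Col-S for 0 of the 20, against 2.2%.

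The genes of specialised metabolism were led by CYP79B3 (AT2G22330, chr2:9488554-9491187, plus strand), a cytochrome P450 that turns tryptophan into indole acetaldoxime, the precursor of indole glucosinolates and of the phytoalexin camalexin. It had 103, 101 and 93.5 CPM in Cvi-0 ozone libraries, against 21, 18.8 and 20.2 CPM in Cvi-0 controls. It had 41.8, 80.6 and 65.2 CPM in Col-0 ozone libraries against 97.5, 92.6 and 84 CPM in Col-0 controls, and 44.1, 72.4 and 66.2 CPM in Col-S ozone libraries against 97.3, 89.2 and 97.2 CPM in Col-S controls. Cvi-0 controls held the lowest values of all groups, and in Col-0 and Col-S every ozone library lay below every control. The fall was called in Col-S (log2 fold change -0.46 ± 0.19) and was not called in Col-0 (-0.43 ± 0.19). The log2 fold change between ozone and control in Cvi-0 was 2.44 ± 0.2 (SE), and that between Cvi-0 and Col-0 was -2.2 ± 0.2 in controls and 0.67 ± 0.19 after ozone.

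The pathway around CYP79B3 was followed in 17 tested genes chosen after its values were seen, and CYP79B2 and CYP83B1 of its first steps had higher responses in Cvi-0. CYP79B2, which catalyses the same reaction, averaged 350.1 ± 21.2 CPM in Cvi-0 ozone libraries and 15.8 ± 2.41 CPM in Cvi-0 controls, 109 ± 33.9 CPM in Col-0 ozone libraries against 64.3 ± 9.2 CPM in Col-0 controls, and 163 ± 62.6 CPM in Col-S ozone libraries against 69.6 ± 9.67 CPM in Col-S controls. Its response was higher in Cvi-0 than in Col-0 by 3.72 ± 0.37 log2 units (edgeR adjusted p = 6.4e-06) and than in Col-S by 3.19 ± 0.37 (adjusted p = 5.8e-05). CYP83B1, the next enzyme of the route to indole glucosinolates, averaged 507 ± 46.5 CPM in Cvi-0 ozone libraries and 109.5 ± 25.2 CPM in Cvi-0 controls, against 415 ± 30.6 CPM in Col-0 ozone libraries and 284 ± 26.7 CPM in Col-0 controls. It exceeded the Col-0 response by 1.67 ± 0.22 log2 units (adjusted p = 6.7e-05). CYP83B1 lay just outside the Col-0 threshold, with a Col-0 difference of 0.55 where that of CYP79B3 was -0.59.

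Later steps and regulators of the pathway did not share a direction. UGT74B1, the glucosyltransferase of the core structure, differed by 0.7 ± 0.18 log2 units between Cvi-0 and Col-0 (edgeR adjusted p = 0.00889). SUR1, the lyase that precedes it, differed in the opposite direction by -0.71 ± 0.18 (adjusted p = 0.0114). SOT16, the sulfotransferase of the last core step, had differences of 1.9 in Cvi-0, 1.58 in Col-0 and 1.84 in Col-S, and its responses did not pass the test of a difference (adjusted p = 0.35). The activator MYB51 had differences of 4.13 in Cvi-0, 4.51 in Col-0 and 4.2 in Col-S, and MYB34, another activator, of -1.6 in Cvi-0, -2 in Col-0 and -2.58 in Col-S. Neither regulator passed the test between Cvi-0 and Col-0 (adjusted p = 0.709 for MYB51 and 0.858 for MYB34). Over the 17 genes, 4 had a higher and 4 a lower response in Cvi-0 than in Col-0, against 11.1% and 10.3% of all tested genes.

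**Figure D4:**
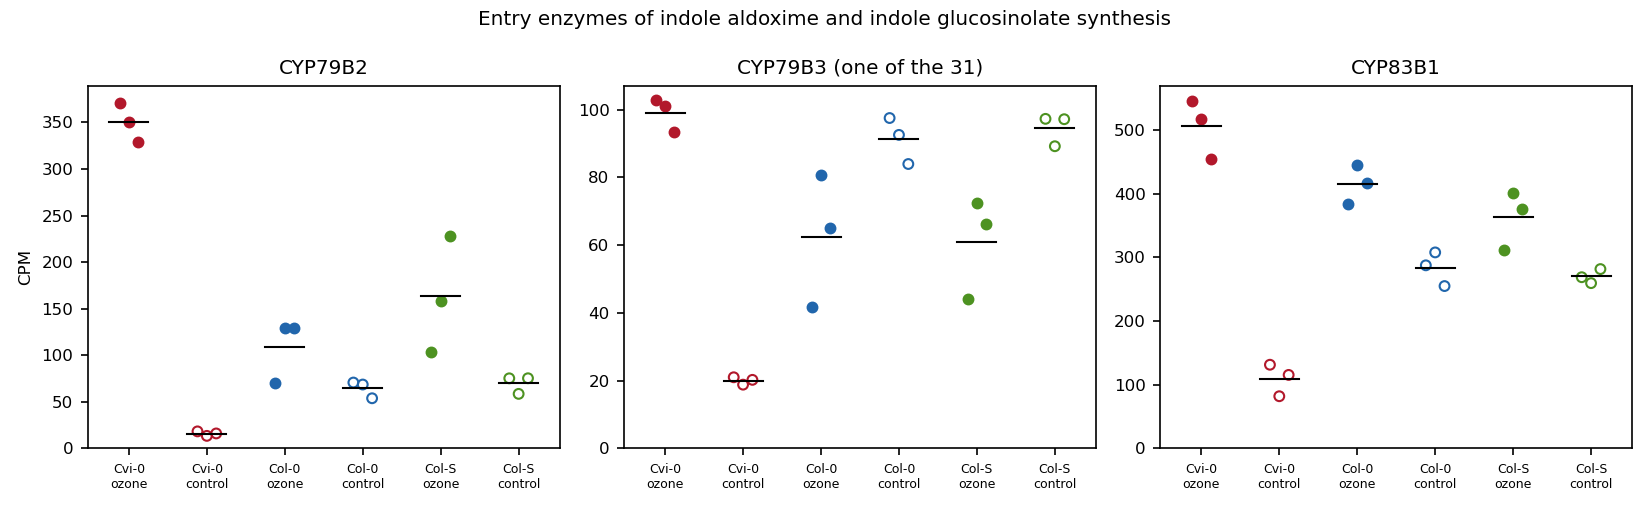
CPM of CYP79B2, CYP79B3 and CYP83B1 in each library, filled for ozone and open for control, with a bar at the group mean and a linear axis from 0. For all 3 genes Cvi-0 controls are the lowest group. CYP79B3 is lower after ozone than in controls in Col-0 and Col-S, a fall that edgeR called in Col-S and not in Col-0.

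Sugar-transferring and other metabolic enzymes among the 31 had lower levels outside Cvi-0 ozone libraries. UGT85A3 (AT1G22380) had 15.9, 17.38 and 12.8 CPM in Cvi-0 ozone libraries against 0.52, 0.726 and 0.806 CPM in Cvi-0 controls, and between 0.654 and 1.14 CPM in the 12 libraries of Col-0 and Col-S. It lies in an array of relatives between UGT85A5, 507 bases downstream, and UGT85A1, 1327 bases upstream. UGT85A1 had differences of 6.59 in Cvi-0, 5.92 in Col-0 and 6.85 in Col-S, and UGT85A5 of -2.05 in Cvi-0, -2.3 in Col-0 and -2.18 in Col-S. Neither passed the test of a difference between the Cvi-0 and Col-0 responses (edgeR adjusted p = 0.188 for UGT85A1 and 0.757 for UGT85A5). UGT85A1 was thus high after ozone and UGT85A5 low in all 3 genotypes.

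AT4G36770, a second UDP-glycosyltransferase, had 9.92, 3.62 and 5.9 CPM in Cvi-0 ozone libraries against 0.325, 0.879 and 0.215 CPM in Cvi-0 controls, and it overlaps the gene APP1. BGLU25, a beta-glucosidase of the class that splits sugars from stored compounds, had 58.7, 55.7 and 86.6 CPM in Cvi-0 ozone libraries against 12.7, 15.7 and 13.4 CPM in Cvi-0 controls, and it overlaps EDA5. Its 12 values in the other lines lay between 8.68 and 24.9 CPM, below every Cvi-0 ozone library. AT3G61400, a dioxygenase dependent on 2-oxoglutarate and iron, had 3.49, 2.9 and 5.17 CPM in Cvi-0 ozone libraries, against 2 counts over the 3 Cvi-0 controls. The pooled ratio of CPM was 113 with an exact 95% interval of 31 to 943, which covers counting error only.

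BRU6 (AT4G37390), the auxin-conjugating enzyme whose promoter is shown above, had 12.2, 10.1 and 13.3 CPM in Cvi-0 ozone libraries against 0.65, 0.306 and 0.645 CPM in Cvi-0 controls. It had 1.29, 1.4 and 2.16 CPM in Col-0 ozone libraries against 1.86, 1.65 and 1.37 CPM in Col-0 controls, and 1.92, 1.78 and 3.71 CPM in Col-S ozone libraries against 1.25, 1.38 and 2 CPM in Col-S controls. No library outside Cvi-0 ozone exceeded 3.71 CPM, and Cvi-0 controls were the lowest group. Of its family, GH3.3 also had a higher response in Cvi-0 than in Col-0, by 1.52 ± 0.42 log2 units (edgeR adjusted p = 0.0152), and than in Col-S, by 2.01 ± 0.43 (adjusted p = 0.00948). WES1 and DFL1, which act on the same hormone, had Cvi-0 differences of 0.24 and -0.1 and did not pass the test against Col-0 (adjusted p = 0.47 for WES1 and 0.733 for DFL1).

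Protein folding, turnover, trafficking and lipid transfer were represented by 4 genes. AT1G54050 encodes a protein of the HSP20 family of small heat shock proteins, which hold unfolding proteins in solution. It had 9.87, 20.9 and 34.1 CPM in Cvi-0 ozone libraries against 1.82, 2.56 and 1.88 CPM in Cvi-0 controls, and 2.86, 4.03 and 2.79 CPM in Col-0 ozone libraries against 8.61, 10.5 and 7.65 CPM in Col-0 controls. The Cvi-0 ozone libraries spread widely, and Cvi-0 ozone replicate 1 lay within the range of the Col-0 controls. Its Col-0 difference of -1.23 was the lowest of the 31. Of 5 other small heat shock proteins tested, 4 were called higher after ozone in Cvi-0, 3 in Col-0 and 4 in Col-S. HSP17.4 had differences of 4.34 in Cvi-0, 0 in Col-0 and 3.06 in Col-S, and HSP17.6A of 5.7 in Cvi-0, 2.26 in Col-0 and 5.38 in Col-S. For HSP17.4 the responses of Cvi-0 and Col-0 differed by 6.97 ± 1.14 log2 units (edgeR adjusted p = 4.6e-04), while those of Cvi-0 and Col-S did not pass the test (2.18 ± 1.22, adjusted p = 0.406). Of 17 tested genes of a heat shock list, which holds none of the 31, 15 were called higher after ozone in Cvi-0 (34.5% of all genes), 15 in Col-0 (29.8%) and 16 in Col-S (34.3%). The response was called higher in Cvi-0 than in Col-0 for 10 of these 17 (11.1%) and than in Col-S for 0 (2.2%).

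AT5G25560, a zinc finger protein of the CHY and RING type found in ubiquitin ligases, was the most abundant of the 31 in CPM. It had 346, 304 and 368 CPM in Cvi-0 ozone libraries against 57.1, 62.9 and 55.1 CPM in Cvi-0 controls, and between 96.1 and 135 CPM in the 12 libraries of Col-0 and Col-S. Cvi-0 controls were thus the lowest group and Cvi-0 ozone libraries the highest, with log2 fold changes of Cvi-0 against Col-0 of -0.86 ± 0.12 in controls and 1.68 ± 0.12 after ozone. EXO70H8, a subunit of the exocyst that tethers secretory vesicles, had 11.1, 13.9 and 7.85 CPM in Cvi-0 ozone libraries against 2.4, 1.45 and 1.34 CPM in Cvi-0 controls. Its relative EXO70H4 had differences of 3.47 in Cvi-0, 3.18 in Col-0 and 4.17 in Col-S, and EXO70H7 of 3.16 in Cvi-0, 1.3 in Col-0 and 1.97 in Col-S. The EXO70H7 response was higher in Cvi-0 than in Col-0 by 1.94 ± 0.25 log2 units (edgeR adjusted p = 5.6e-05), and that of EXO70H4 did not pass the test (adjusted p = 0.684).

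AT4G12500, a lipid-transfer protein of the hybrid proline-rich type, sits in a cluster with AZI1 and EARLI1, which act in systemic immunity and cold responses. It had 5.83, 7.02 and 6.51 CPM in Cvi-0 ozone libraries against 0.26, 1.6 and 0.538 CPM in Cvi-0 controls, and up to 2.07 CPM in Col-0 and Col-S. EARLI1 averaged 98 ± 15.4 CPM in Cvi-0 ozone libraries and 4.44 ± 2.77 CPM in Cvi-0 controls, against 2.35 ± 0.341 CPM in Col-0 ozone libraries and 1.31 ± 0.99 CPM in Col-0 controls. Its response exceeded that of Col-0 by 3.68 ± 0.6 log2 units (edgeR adjusted p = 5.0e-04) and did not pass the test against Col-S (2.42 ± 0.72, adjusted p = 0.0675). AZI1 had differences of 2.24 in Cvi-0, 1.62 in Col-0 and 2.4 in Col-S. AT4G12500 shares 6.86% of its 50-base words with another place in the genome. Its counts are uncertain for that reason, by an amount that was not tested. In all, 5 of the 31 genes had such words, and the highest share was 39.5% in AT1G64410, followed by 9.33% in AT1G52950.

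A further group was nearly or fully silent in Col-0 and Col-S. AT1G52950 had 114, 90.9 and 71.4 CPM in Cvi-0 ozone libraries against 1.75, 0.993 and 3.6 CPM in Cvi-0 controls, and at most 0.277 CPM in any library of Col-0 or Col-S. Its CPM in Cvi-0 ozone libraries was 2736 times that in Col-S ozone libraries, where 2 counts were found (exact 95% interval 757 to 22600). In controls Cvi-0 was also higher, at 58.5 times the CPM of Col-0, where 2 counts were found (exact 95% interval 15.8 to 488). AT1G64410, whose upstream sequence in the Col-0 reference is nearly alike, had 8.29, 6.68 and 6.71 CPM in Cvi-0 ozone libraries against 0.195, 0.917 and 0.484 CPM in Cvi-0 controls and no count in 12 libraries of Col-0 and Col-S. By these counts, this pseudogene was at least 161-fold higher in Cvi-0 than in Col-0 after ozone, against a floor of 3 counts over the group. Of the words described above, 39.5% in AT1G64410 and 9.33% in AT1G52950 occur again elsewhere in the genome. The counts of both are uncertain for that reason, and how many reads of either were counted for the other was not tested. Both genes had counts in Cvi-0 controls and few or none in Col-0 and Col-S, and their upstream sequences in Cvi-0 were not analysed here.

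Another 3 genes of this kind had no counts or almost none outside Cvi-0. AT5G18880, annotated as related to reverse transcriptase, had 26.7, 25.2 and 25.8 CPM in Cvi-0 ozone libraries against 5.33, 5.04 and 4.95 CPM in Cvi-0 controls. It had 0 counts in Col-0 and 3 counts over the Col-S controls, and in Cvi-0 it was at least 573-fold higher than in Col-0 after ozone. AT5G37140, with a nucleotide-binding P-loop, had 7.69, 8.02 and 5.3 CPM in Cvi-0 ozone libraries and 0 in every other library, a rise in Cvi-0 of at least 143-fold. AT2G31862, with a plant B3 DNA-binding domain, had 5.72, 4.29 and 8.39 CPM in Cvi-0 ozone libraries and 0 in every other library, at least 120-fold above Cvi-0 controls. AT5G37140 and AT2G31862 were thus found in 3 of 18 libraries, all of the same group.

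AT3G27860, a protein of the Tudor and PWWP class that reads histone marks, was present in all groups. It had 40.0, 21.2 and 65.1 CPM in Cvi-0 ozone libraries against 3.05, 3.48 and 2.47 CPM in Cvi-0 controls, and 0.923, 1.2 and 1.16 CPM in Col-0 ozone libraries against 1.69, 1.81 and 1.58 CPM in Col-0 controls. The Cvi-0 ozone replicates spanned a wide range, yet the lowest lay above every other library. AT3G08810, a kelch-repeat protein, had 10.6, 9.52 and 16 CPM in Cvi-0 ozone libraries, against 0.26, 0.497 and 0.645 CPM in Cvi-0 controls, and at most 0.692 CPM elsewhere.

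The remaining 8 genes have little or no annotated function. AT2G15960, named a stress-induced protein, had the highest level per length, at 252 CPM per kb in Cvi-0 ozone libraries. It had 97.9, 95.7 and 94.2 CPM in Cvi-0 ozone libraries against 9.16, 4.43 and 11.8 CPM in Cvi-0 controls, and Col-S ozone replicate 1 was the highest of the other lines at 22.9 CPM. AT1G18290 had 7.47, 11.2 and 9.06 CPM in Cvi-0 ozone libraries and no count in Cvi-0 controls, at least 185-fold higher. AT2G27270 and the long non-coding RNA AT3G19002 also had no count in Cvi-0 controls, and were at least 122-fold and 74.8-fold higher after ozone. AT1G18290, AT2G27270 and AT3G19002 were also called higher after ozone in Col-S, and AT1G18290 and AT3G19002 in Col-0, from the few counts given above. AT3G19002 overlaps the gene AT3G19000. AT5G03204, AT1G76610, AT3G45730 and AT3G45820 had Cvi-0 differences of 2.42, 2.71, 2.61 and 2.12. AT1G76610 is related to MIZU-KUSSEI1, a protein of root hydrotropism. In the ozone libraries of Cvi-0 these 4 genes lay between 3.9 and 14.2 CPM.

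Several of the 31 lay beside genes with far stronger ozone responses. Of the 31, 11 (35.5%) had a direct neighbour whose Cvi-0 difference was at least 2, as had 28.0% of the 1945 genes that reached 2 in Cvi-0 themselves and 12.6% of all genes with a count. Of the 44 tested neighbours, 22 were called higher after ozone in Cvi-0 (34.5% of all genes) and 11 lower (36.1%). The difference between the Cvi-0 and Col-0 responses was called higher for 13 of them (11.1%) and lower for 4 (10.3%), and that between the Cvi-0 and Col-S responses was called higher for 6 (2.2%). Neighbours called lower against Col-S (2.66% of all genes) were not counted. Among them were AT4G19520, AT5G59680 and ELO3, with log2 differences of -3.94, -1.36 and -0.77 against Col-S. For 7 neighbours ozone minus control was at least 2 in all 3 genotypes, so that a gene within the rule stood beside one that responded everywhere.

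The strongest of these neighbours was AT3G61390, a U-box protein of the ubiquitin ligase class, 582 bases upstream of AT3G61400 on the same strand. It averaged 224 ± 40.1 CPM in Cvi-0 ozone libraries and 0.0382 ± 0.0662 CPM in Cvi-0 controls, 1.54 ± 0.428 CPM in Col-0 ozone libraries against 0.268 ± 0.318 CPM in Col-0 controls, and 17.8 ± 1.12 CPM in Col-S ozone libraries against 0.085 ± 0.107 CPM in Col-S controls. The order Cvi-0, Col-S, Col-0 held after ozone for this gene and for the following neighbours. AT3G61390 was not among the neighbours whose Cvi-0 response passed edgeR's test of a difference against both Col-0 and Col-S. DIP2, 389 bases upstream of AT5G03204 on the same strand, averaged 160.0 ± 15.1 CPM in Cvi-0 ozone, 15.2 ± 2.88 CPM in Col-0 ozone and 76.9 ± 23 CPM in Col-S ozone libraries. PARG2, a poly(ADP-ribose) glycohydrolase 131 bases downstream of AT2G31862 on the opposite strand, averaged 451 ± 18.9 CPM in Cvi-0 ozone, 61.9 ± 12.3 CPM in Col-0 ozone and 161 ± 23.7 CPM in Col-S ozone libraries. NUDT4, a Nudix hydrolase 1358 bases downstream of AT1G18290 on the same strand, averaged 541 ± 133 CPM in Cvi-0 ozone, 69.8 ± 27.8 CPM in Col-0 ozone and 268 ± 105 CPM in Col-S ozone libraries. Relative to the response of Col-0, that of Cvi-0 was higher by 3.7 ± 0.68 log2 units for DIP2 (edgeR adjusted p = 0.00121), by 2.84 ± 0.52 for PARG2 (adjusted p = 0.0012) and by 2.68 ± 0.43 for NUDT4 (adjusted p = 4.0e-04). Relative to Col-S, the response of DIP2 was higher by 2.65 ± 0.58 (adjusted p = 0.0111), and those of PARG2 (0.42 ± 0.54, adjusted p = 0.784) and NUDT4 (0.84 ± 0.42, adjusted p = 0.336) did not pass the test. The part of reads from these neighbours in the counts of AT3G61400, AT5G03204, AT2G31862 and AT1G18290 was not tested.

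Not every strong neighbour differed between genotypes. AT3G19010, a dioxygenase 539 bases from AT3G19002 on the opposite strand, had differences of 4.04 in Cvi-0, 4.29 in Col-0 and 4.67 in Col-S and did not pass the test between Cvi-0 and Col-0 (-0.27 ± 0.32 log2 units, edgeR adjusted p = 0.594). Weaker neighbours with a higher response in Cvi-0 than in Col-0 were AT2G27260, a hydroxyproline-rich protein of the late embryogenesis abundant class beside AT2G27270, by 1.82 ± 0.18 log2 units (adjusted p = 7.0e-06), and BEH2, a brassinosteroid transcription factor beside AT4G36770, by 1.29 ± 0.19 (adjusted p = 2.3e-04).

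**Figure D5:**
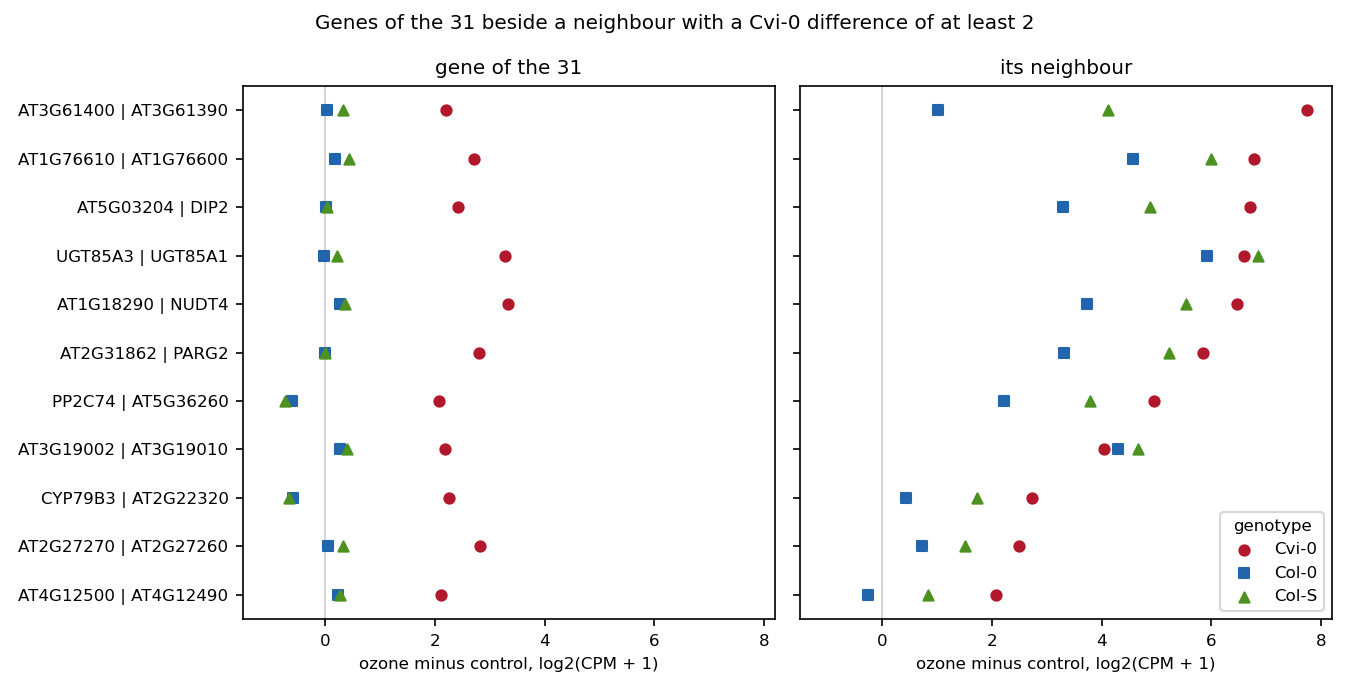
Ozone minus control in log2(CPM + 1) for 11 of the 31 genes (left) and for the direct neighbour of each with a Cvi-0 difference of at least 2 (right), in Cvi-0 (circles), Col-0 (squares) and Col-S (triangles). AT3G61390 has the largest Cvi-0 value among the neighbours at 7.75, and UGT85A1 and AT3G19010 have high values in all 3 genotypes.

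By position, the 31 genes were spread over the genome, and their shares are set beside those of all genes with a count. Chromosome 1 held 6 (19.4%, against 25.9%), chromosome 2 held 5 (16.1%, against 15.9%) and chromosome 3 held 7 (22.6%, against 20%). Chromosome 4 held 4 (12.9%, against 15.3%) and chromosome 5 held 9 (29%, against 23%). In gene order, no gene of the 31 was the direct neighbour of another. Of all genes with a count, 0.213% lay beside one of the 31. AT5G59660 and AT5G59670 nevertheless lie in the same kinase cluster. Of the 31, 4 (12.9%) overlap another annotated gene, against 14% of all genes with a count.

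Between genotypes, levels in controls went both ways, while levels after ozone were higher in Cvi-0 for nearly all of the 31. In controls, edgeR called 7 genes higher (12.2% of all genes) and 9 lower (11.8%) in Cvi-0 than in Col-0, and 5 higher (10.9%) and 9 lower (10.2%) than in Col-S. The 9 that were lower were the same genes in both comparisons: BRU6, AT4G19510, AT5G59670, AT1G54050, AT3G45730, AT5G25560, AT5G59660, AT4G36770 and CYP79B3. The 5 called higher against both lines were AT1G52950, AT1G64410, PLL2, AT5G18880 and AT3G45820. The count of 7 was 4 without Cvi-0 control replicate 2, without Col-0 control replicate 1 or without Col-0 control replicate 2. After ozone 29 genes were called higher in Cvi-0 than in Col-0 (24.6%) and 29 than in Col-S (13.8%), 0 were called lower than in Col-0 (24.4%) or in Col-S (14.8%), and AT4G19510 and AT5G59670 were the ones not called. These comparisons use the libraries of the rule, and the counts are a description.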

How the data were processed

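Messenger RNA of whole rosettes was sequenced in 18 libraries made with the TruSeq RNA kit version 2, per the labels. Reads were checked, aligned and counted with tools that the submitters' processing notes list as HTSeq, TopHat2, FastQC and SAMtools, on TAIR10; their versions, the strand setting and the handling of multiply mapped reads were not given in the sources used here. What the authors deposited are raw whole-number counts per gene, without normalization, with the gene's coordinates and length. Organelle genes (279) had a total count of 0. The check of replicates found no library deposited more than once.

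The genes and lists were chosen with earlier results of these data known. CPM is the count over the library total. A fit of 20622 genes kept by filterByExpr (edgeR 4.0.16, R 4.3.3, TMM scaling, quasi-likelihood test, 1 mean per group, 12 residual degrees of freedom) gave log2 fold changes and p-values adjusted by Benjamini-Hochberg over all tested genes. The SE of a log2 fold change was taken as its absolute value over the square root of the test's F statistic. The code was run on simulated counts with the same spread for all genes and changes only in well counted genes of Cvi-0 ozone libraries. That run does not show how the fit handles changes in genes near 0 counts. A gene was called at an adjusted p under 0.05. P-values measure the spread between pooled rosette samples. Neighbours are the annotated genes on either side, and families were picked after the 31 genes were known. Genes were named by the largest Cvi-0 difference, the highest level per kb, the lowest Col-0 and Col-S differences and the distance to each threshold; all others of the 31 were named after their values were seen. Of 683 entries of 18 gene lists 627 were matched, and none is among the 31. Of the cell type markers, 2 symbols belonged to other genes in the name table and were left out. Names come from RefSeq. Promoters were read from TAIR10.1 at the start given in the deposited files. Alternatives were DESeq2 1.42.0, its size factors, no filter, a replicate block, the compared groups alone, other pseudocounts and thresholds, and each library left out. Folds against a group with no count use a floor of 3 counts over the group. Intervals and floors cover counting error only, and a floor of 3 counts is 0.115 to 0.201 CPM per library. Figures were drawn with matplotlib 3.10.9 under Python 3.11.15.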

Additional observations from a re-analysis of the deposited data

Results flagged for a closer look

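Among the 31 genes the difference between genotypes is the rule itself, so only neighbours and family members outside the rule were looked at here. Of 86 looked at, 17 had an ozone response in Cvi-0 that differed from both Col-0 and Col-S in edgeR's test (adjusted p under 0.05), and they were looked at because of their place beside the 31 or their family. The share of all tested genes that differed from both was not computed. Against Col-0 alone 11.1% were called higher and 10.3% lower, and against Col-S alone 2.2% and 2.66%. The values are the response of Cvi-0 minus that of Col-0 in log2 units.

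In the receptor clusters the value was 4.28 for AT5G59650, -1.71 for AT5G59680, -2.71 for AT4G19520 and 4.28 for AT4G19530. In the indole pathway it was 3.72 for CYP79B2, 1.67 for CYP83B1 and 0.70 for UGT74B1. The methyltransferases of indole glucosinolates IGMT1 and IGMT2 had 1.31 and -2.15. Of their 50-base words, 11.2% in IGMT1 and 39.9% in IGMT2 occur again elsewhere in the genome, and both values are uncertain for that reason. In other families it was 1.52 for GH3.3 and 1.94 for EXO70H7.

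Among direct neighbours the value was 3.7 for DIP2, 3.77 for AT5G36260, an aspartyl protease 373 bases downstream of PP2C74, 1.82 for AT2G27260 and 1.29 for BEH2. ELO3, a subunit of the Elongator complex beside AT5G50330, had -0.67. The small nucleolar RNA AT3G27865, 423 bases downstream of AT3G27860, had 3.54, at a mean of 0.408 CPM in Cvi-0 ozone libraries and 0.0867 CPM in Cvi-0 controls. The causes of these differences were not tested.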

How the results depend on the processing

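The rule gave 31 genes with TMM scaling (26 shared with the main set), 40 with a pseudocount of 0.5 (24 shared), 25 with a pseudocount of 2 (20 shared) and 30 to 38 when 1 library was left out. It gave 12 genes when Col-0 and Col-S had to be at most 0, 26 when they had to lie between -0.5 and 0.5, 7 when Cvi-0 had to reach 3, and 27 without overlapping genes. With library totals the median difference of all tested genes was -0.13 in Cvi-0, -0.10 in Col-0 and -0.16 in Col-S, and with TMM it was -0.04, -0.01 and -0.02. Fitted to the compared groups alone, 1 gene was called higher in Col-0, 3 in Col-S and 3 in Cvi-0 controls against Col-0 controls. With 1 library left out these counts ranged over 1 to 4, 4 to 10 and 4 to 7, and those called lower in Col-0 over 2 to 5. Same-numbered libraries deviated together in 42 of 45 pairs (r over 0.1), and 18 of 18 libraries correlated best with their own number, but 3 pairs did not pass, and the numbers were not taken to pair the samples. With a replicate block, 5 genes instead of 3 were called lower in Col-0, and the other counts of calls stayed within 1.5 times. Of 408 refits of 24 named genes in the response of Cvi-0 minus Col-0, 2 lost and 5 gained the call; the direction is fixed by the choice of genes and shows no stability. The causes were not tested. Depth limits the genes at or near 0 counts: 3 of 31 had no count in any Col-0 or Col-S library, and a small response there was not detectable.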

Other observations

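ESP, the epithiospecifier protein that steers glucosinolate breakdown towards nitriles, is the downstream neighbour of AT1G54050 and differed between genotypes by its level. It averaged 994 ± 352 CPM in Cvi-0 ozone libraries and 3910.0 ± 480.0 CPM in Cvi-0 controls (SD, n = 3 each). In Col-0 it averaged 7.41 ± 3.81 CPM in ozone libraries and 35.5 ± 0.913 CPM in controls, and in Col-S 4.7 ± 1.03 CPM in ozone libraries and 44.9 ± 3.23 CPM in controls. Its level was lower after ozone in all 3 genotypes, with differences of -2.03 in Cvi-0, -2.21 in Col-0 and -3.02 in Col-S, and the responses of Cvi-0 and Col-0 did not pass the test of a difference (0.29 ± 0.39 log2 units, edgeR adjusted p = 0.641). The cold-regulated membrane protein gene COR413-PM1, downstream of AT2G15960, was likewise lower after ozone in all 3, with differences of -1.69 in Cvi-0, -2.21 in Col-0 and -2.62 in Col-S.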
